A study of Mus musculus with 6 samples.

Results

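Olfactory receptor genes of mouse chromosome 2 were followed in primary cultures of cerebral cortex that had or had not received terahertz radiation, whose frequencies lie above those of microwaves and below those of infrared light. The 3 irradiated cultures were exposed at 3.1 THz for 3 hours a day, beginning on day 5 and ending on day 9 in vitro. The 3 control cultures were not irradiated. All 6 came from C57/B6 embryos of embryonic day 16, grew in Neurobasal medium with B27 plus, and were collected on day 12 in vitro, and each RNA was labelled with Cy3 and hybridised to its own 1-colour Agilent array. The labels do not say whether the cultures of a group came from separate dissections, so a p-value here measures only how far these samples differ, and part of that may be technical. A probe counted as a member if its name was Olfr followed by a number, it lay on chromosome 2, and its spot carried the scanner software's mark for a signal clearly over background on 3 or more arrays of either group. The array carried 298 such probes for 282 genes of chromosome 2, and 60 probes, 1 for each of 60 genes, met the rule. Over the whole array, 40552 of 56605 probes met the same threshold. Levels below are log2 signal relative to the 75th percentile of the array, and differences are irradiated minus control on that scale.

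Olfactory receptors are G protein-coupled receptors with which sensory neurons of the nose detect odorants, and they form the largest gene family in the mouse. They lie in clusters along most chromosomes. Each olfactory sensory neuron normally transcribes 1 allele of 1 receptor gene and keeps the rest silent in heterochromatin. The receptor signals through the G protein Golf and adenylyl cyclase 3 to a channel gated by cyclic nucleotides. Transcripts of some receptors have also been reported outside the nose, where their function is mostly unknown. Receptors are grouped by sequence into MOR families, and the 60 members spanned 25 of these.

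All 60 members matched a mouse gene in RefSeq by accession; 59 were annotated as protein coding, and Olfr1077-ps1 was a transcribed pseudogene. Each probe was a 60-base oligonucleotide with 21 to 27 G or C bases. The probes for the 3 members with the smallest p, and for the 2 with the brightest spots, are printed here because the values below turn on them. They lay at chr2:36233065-36233124 (Olfr338, plus strand), chr2:85709372-85709431 (Olfr1022, plus), chr2:111156346-111156405 (Olfr1280, plus), chr2:87736626-87736685 (Olfr1153, plus) and chr2:89122461-89122520 (Olfr1229, minus) of build mm9, per the file headers. No exon annotation of that build was used.
Olfr338: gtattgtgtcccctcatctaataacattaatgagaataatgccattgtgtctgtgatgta
Olfr1022: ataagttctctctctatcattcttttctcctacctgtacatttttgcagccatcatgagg
Olfr1280: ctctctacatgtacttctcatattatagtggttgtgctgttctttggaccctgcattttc
Olfr1153: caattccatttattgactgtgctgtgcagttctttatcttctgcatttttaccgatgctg
Olfr1229: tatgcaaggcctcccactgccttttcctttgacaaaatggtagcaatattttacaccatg

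Because the receptors are a family of similar sequences, the probes were compared with one another. The longest run of bases that a member's probe shared with any other Olfr probe had a median of 13, and 4 members shared a run of 20 or more. The longest, of 24 bases, joined Olfr1261 and Olfr1262, neighbours of family MOR234, at chr2:89834413-89834472 and chr2:89843420-89843479. The capitals mark the shared run. A second probe of Olfr1262, at chr2:89842995-89843054, was well above background on 0 of 6 arrays and is shown with them; all 3 probes are given for the plus strand.
Olfr1261: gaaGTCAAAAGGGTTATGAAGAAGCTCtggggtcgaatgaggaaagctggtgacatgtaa
Olfr1262: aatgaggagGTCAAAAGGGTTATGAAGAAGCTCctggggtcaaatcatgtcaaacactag
Olfr1262 second probe: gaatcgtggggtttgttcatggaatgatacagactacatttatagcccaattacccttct

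Most receptors of chromosome 2 gave no signal above background in these cultures. Of the 298 probes, 217 were well above background on 0 arrays, 14 on 1 and 7 on 2. Among the 60 members, 38 were detected on all 6 arrays, and 22 on 3 to 5. Of those 22, 11 were detected on more irradiated than control arrays, 7 on fewer and 4 on equal numbers. Detection on single arrays covered 58, 57 and 61 of the 298 probes on irradiated arrays 1 to 3 and 54, 56 and 66 on control arrays 1 to 3, so the groups overlapped. The measured share of receptor probes was 20.1% on chromosome 2 and 24.6% on other chromosomes, against 71.6% of all probes. Here and below, receptors of other chromosomes are all those not placed on chromosome 2. On the array these include 7 probes with no chromosome given.

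Probes of 1 receptor gene did not all detect it. Among the 16 chromosome 2 receptor genes with more than 1 probe, 6 had a measured probe, and in each of these 6 the other probe was well above background on 0 arrays. For Olfr1115, of family MOR264, the measured probe read 64.6, 86.2 and 70.4 intensity units on irradiated arrays 1 to 3, against 53.0, 55.7 and 63.8 on control arrays 1 to 3. Its other probe, which ends at the base before the first one begins, read 2.11 to 2.76 over the 6 arrays. In Olfr1243, Olfr1036, Olfr1097, Olfr1316 and Olfr1262 the other probe was likewise undetected, but the gap in signal was not always as wide. Over the arrays, the other probe of Olfr1097 read 3.7 to 9.2 units, against 7.6 to 24.8 for the measured one. In Olfr1036 the ranges were 2.1 to 6.7 and 6.3 to 37.0. A single measured probe therefore does not show that the whole transcript of its gene was present. Further, 3 members' probes carried the accession of a second receptor in the RefSeq table (Olfr1097 with Olfr1098, Olfr153 with Olfr1131, and Olfr1261 with Olfr1263), and their signal cannot be assigned to 1 gene.

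Members just inside the detection threshold had signals close to those just outside it. Olfr1009, of family MOR175 and detected on 3 arrays, read 8.99, 11.9 and 12.0 units on irradiated arrays 1 to 3 and 14.1, 15.4 and 11.5 on control arrays 1 to 3. Olfr1211, of family MOR233 and also detected on 3, read 12.3, 9.11 and 8.25 on irradiated arrays, against 14.5, 4.53 and 12.6 on control arrays. Those were the members detected on the fewest arrays. Just outside, with detection on 2 arrays, Olfr1033 read 13.2, 10.6 and 13.5 on irradiated arrays and 9.61, 10.8 and 10.4 on control arrays. Olfr1200 read 9.95, 12.5 and 12.4 on irradiated arrays, against 9.37, 11.1 and 12.3 on control arrays. Olfr1122 read 11.5, 18.4 and 9.14 on irradiated arrays, against 6.44, 7.76 and 14.2 on control arrays.

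Relative to the 75th percentile of each array, 54 of the 60 members were lower and 6 higher in irradiated than in control cultures. Without scaling between arrays the whole array was brighter in irradiated cultures, with 95.3% of all probes and 93.5% of probes of like brightness higher (medians 0.67 and 0.72), against 78.3% of the members, or 47 of 60 (median 0.23). The scaled differences had a median of -0.50 (quartiles -0.69 and -0.33), where the median over all 40552 probes was -0.05 and 56% of them lay below 0. No member passed an adjusted p of 0.05 in limma over all probes. The smallest adjusted p of a member was 0.519, and 0 of all 40552 probes passed (0%). At unadjusted p under 0.05, 13 members were lower, or 21.7%, against 5.01% of all probes, and 0 were higher, against 4.02%. That count was 7 without irradiated 2, where 1.25% of all probes were lower at that p, and 21 without control 3, where 10.9% were. All 3 irradiated values lay below all 3 controls for 13 members, or 21.7%, against 9.77% of all probes, and above them for 0, against 5.76%. Both sets of 13 include Olfr338, Olfr1022, Olfr1135 and Olfr1232, which were detected on more control than irradiated arrays. The set by p also includes Olfr1009, likewise. Both counts are therefore descriptions. Among probes detected on all 6 arrays, 10 of 38 members were lower at unadjusted p under 0.05, against 6.21% of all such probes. Standard errors of single members ranged from 0.21 to 0.62, with a median of 0.31. In bulk RNA, fewer cells of a type and less RNA per cell cannot be told apart.

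**Figure D1:**
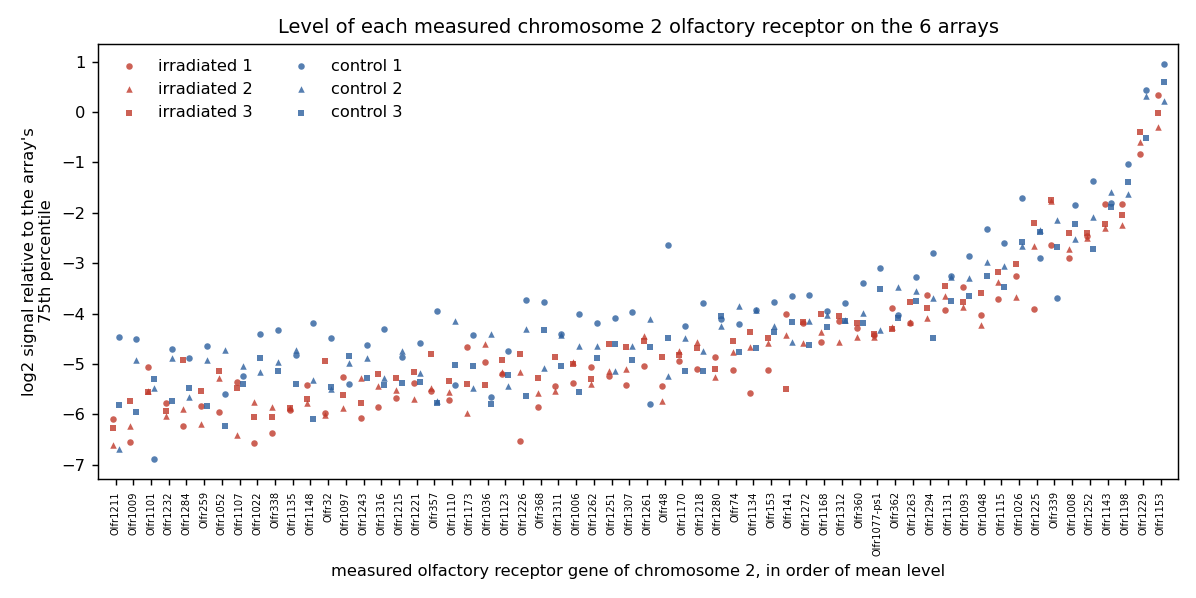
Level of each of the 60 measured olfactory receptors of chromosome 2 (log2 signal relative to the 75th percentile of the array), in order of mean level, with 1 point per array and the irradiated arrays left of the controls. Control 1 (blue circles) gave the highest value for 45 of the 60 members and the lowest for 3.

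The array labelled control 1 stood apart from the other 5 in the members' level. The median level over the members was -5.11, -5.03 and -4.81 on irradiated arrays 1 to 3 and -4.01, -4.46 and -4.79 on control arrays 1 to 3. Control 1 stood highest, and the gap between irradiated 3 and control 3 was small beside the spread of these medians within groups (pooled SD 0.30). With control 1 left out the median difference of the members was -0.34, and without control 3 it was -0.64. Without both arrays numbered 1 it was -0.23, with 48 of 60 members lower. A placement that does not depend on scaling, the percentile of the members among all probes of their own array, had a median of 34.6, 35.6 and 37.2 on irradiated arrays 1 to 3 and of 44.9, 38.7 and 38.2 on control arrays 1 to 3. Those values did not overlap between groups, with irradiated 3 close to control 3.

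Probes of like brightness were used as the yardstick for these dim spots. For each member, the 500 probes that are not olfactory receptors and lay nearest in mean level were taken, 14758 distinct probes in all, whose differences had a median of -0.0029, with 50.2% below 0. The members lay a median of -0.46 beyond their neighbours in brightness, and 53 of 60 were below them. Subtracting a percentile from each array cannot change this distance, because it shifts every probe of an array alike. Without control 1 the median distance was -0.31, and without both arrays numbered 1 it was -0.22. By array, the median distance from probes of like brightness was -0.38, -0.32 and -0.07 on irradiated arrays 1 to 3, against 0.68, 0.03 and 0.02 on control arrays 1 to 3 (pooled SD 0.29). Controls 2 and 3 and irradiated 3 were thus close to 0, and control 1 was the farthest from it. Neighbours were matched on the mean over these same 6 arrays, so 0 is about the members' own average, not an outside reference. A high value on control 1 therefore lowers the distances on the other arrays. The value also depended on the handling of background: it was -0.11 with normexp background correction (52 of 60 below), -0.17 with no background subtraction (54 of 60) and -0.014 over all 298 probes with no filter on dim probes (184 of 298). Among only the probes detected on all 6 arrays, the 38 members so detected lay at -0.31, with 33 below. Neighbours were then drawn from such probes alone, and with no filter from undetected probes too. The yardstick in these 2 settings thus differed from the one above.

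**Figure D2:**
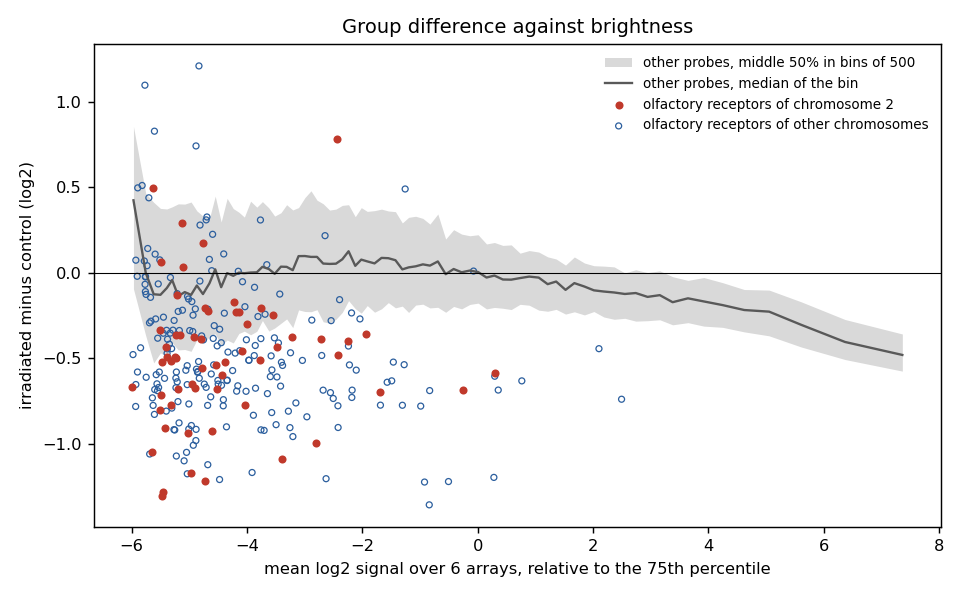
Difference of each probe, irradiated minus control (log2), against its mean level over the 6 arrays, for the 60 members (red), 210 olfactory receptor probes of other chromosomes (blue rings) and all other measured probes (grey line, median; band, middle 50%, in bins of 500). Most receptors of both sets lay below the grey line, and 53 of the 60 members were below their 500 nearest probes in brightness.

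The unscaled signal of the members varied less between arrays than the rest of the array did. The median signal of the 60 members was 24.3, 27.2 and 22.6 units on irradiated arrays 1 to 3 and 19.8, 21.2 and 25.5 on control arrays 1 to 3, a ratio of 1.38 between the highest and the lowest array. Probes of like brightness had median signals of 50.1, 51.3 and 35.8 on irradiated arrays and 18.2, 29.3 and 37.0 on control arrays, a ratio of 2.81. The 75th percentile itself was 841, 892 and 635 on irradiated arrays and 320, 465 and 707 on control arrays, a ratio of 2.79. The groups overlapped in all of these quantities. Irradiated over control, the 3 geometric mean ratios were 1.12 for the members, 1.67 for probes of like brightness and 1.65 for the percentile.

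Negative control spots, which have no target, and undetected receptors gave like values. The median signal of 308 negative control spots was 2.47, 2.76 and 2.27 units on irradiated arrays 1 to 3 and 2.11, 2.54 and 2.46 on control arrays 1 to 3. After scaling, all 308 were lower in irradiated cultures, with a median of -0.65, while their unscaled median difference was 0.08. The 217 receptor probes of chromosome 2 that were never detected had a scaled median of -0.65, with 200 lower, and an unscaled median of 0.08. The members' scaled median of -0.50 lay between that and the value of probes of like brightness, and their unscaled median was 0.23, against 0.72 for probes of like brightness. The part of signal near background in the members' difference was not tested.

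**Figure D3:**
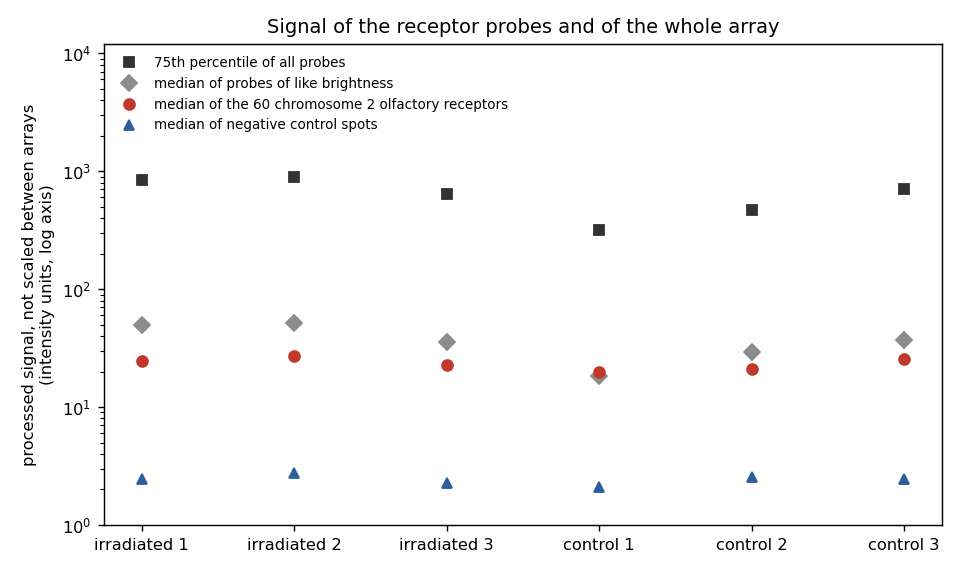
Processed signal on each array, not scaled between arrays, on a log axis: the 75th percentile of all probes, the median of probes of like brightness, the median of the 60 members and the median of 308 negative control spots. The percentile spanned a ratio of 2.79 between arrays and the members' median a ratio of 1.38.

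Among the members below their controls, the 3 with the smallest p were Olfr338, Olfr1280 and Olfr1022. The level of Olfr338, of family MOR136, was -6.37, -5.86 and -6.05 on irradiated arrays 1 to 3 and -4.33, -4.97 and -5.13 on control arrays 1 to 3. The groups did not overlap, and the difference was -1.28. The probe was well above background on 1 irradiated and all 3 control arrays, so it met the detection rule through the controls, and its difference is given as a description with no test. Olfr1280, of family MOR248, had levels of -4.85, -5.25 and -5.09 on irradiated arrays, against -4.12, -4.25 and -4.05 on control arrays, and was detected on all 6. It differed by -0.93 with a standard error of 0.21 (95% interval -1.41 to -0.44, limma adjusted p 0.519), and lay -0.89 beyond probes of like brightness. Its 3 controls had an SD of 0.10, against 0.42 and 0.39 for Olfr338 and Olfr1022, the others of the 3 smallest p. Olfr1022, of family MOR196, measured -6.56, -5.76 and -6.06 on irradiated arrays and -4.40, -5.17 and -4.89 on control arrays. It differed by -1.31. Like Olfr338, it was detected on 1 irradiated and 3 control arrays and entered through the controls, so that value too is a description.

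A further 7 receptors made up the 10 lower members with the smallest p. Olfr1048, of family MOR187, measured -4.02, -4.22 and -3.59 on irradiated arrays 1 to 3 and -2.32, -2.98 and -3.25 on control arrays 1 to 3. Olfr1026, of family MOR196, measured -3.24, -3.68 and -3.01 on irradiated arrays, against -1.71, -2.67 and -2.57 on control arrays. Both were detected on all 6 arrays without overlap of the groups, and differed by -1.09 and -0.99. Olfr368, of family MOR178, measured -5.85, -5.57 and -5.27 on irradiated arrays, against -3.77, -5.08 and -4.33 on control arrays, a difference of -1.17. Olfr1135, of family MOR177, measured -5.91, -5.87 and -5.87 on irradiated arrays, against -4.83, -4.71 and -5.39 on control arrays, a difference of -0.91. The groups were apart in both. Olfr368 was detected on all 6 arrays. Olfr1135 was detected on 2 irradiated and 3 control arrays, so its difference, like that of Olfr338, is a description. Olfr1262 differed by -0.68 and Olfr1243, of family MOR231, by -0.78; the values of Olfr1243 met near -5.27, with irradiated 2 above control 3. Olfr1048, Olfr1026, Olfr368, Olfr1262 and Olfr1243 each had a limma adjusted p of 0.519. Beyond probes of like brightness Olfr1262 lay at -0.60 and Olfr1243 at -0.75.

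The brightest receptor spots were those of Olfr1153 and Olfr1229. Olfr1153, of family MOR177, read 1058, 724 and 630 units on irradiated arrays 1 to 3 and 622, 542 and 1073 on control arrays 1 to 3. Its scaled level was 0.33, -0.30 and -0.01 on irradiated arrays, against 0.96, 0.22 and 0.60 on control arrays, so the groups overlapped. The difference was -0.59 (95% interval -1.23 to 0.06). Olfr1229, of family MOR233, read 471, 594 and 484 units on irradiated arrays and 436, 580 and 492 on control arrays. Its scaled difference was -0.69 (95% interval -1.40 to 0.03). Olfr1198, of family MOR225, was the only one of the 6 brightest whose groups did not overlap, at -1.83, -2.24 and -2.04 on irradiated arrays and -1.02, -1.62 and -1.38 on control arrays. It differed by -0.70 (95% interval -1.26 to -0.14, limma adjusted p 0.519). Olfr1143, Olfr1252 and Olfr1008 differed by -0.36, -0.40 and -0.48, with intervals that included 0. Beyond probes of like brightness the 6 brightest lay between -0.77 (Olfr1198) and -0.42 (Olfr1143).

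Of the 6 members above their controls, none had an interval that excluded 0, and only Olfr339 was detected on all 6 arrays. Olfr1101, Olfr1261, Olfr1036, Olfr1052 and Olfr1123 were detected on all 3 irradiated arrays and on 1 or 2 control arrays. They met the detection rule through the irradiated arrays, so their differences are descriptions and no test is drawn from their intervals. Olfr339, of family MOR136 and the neighbour of Olfr338, measured -2.64, -1.76 and -1.75 on irradiated arrays 1 to 3 and -3.69, -2.14 and -2.67 on control arrays 1 to 3. It differed by 0.78 (95% interval -0.24 to 1.81, limma adjusted p 0.534), with irradiated 1 among the controls. Olfr1101, of family MOR179, measured -5.05, -5.54 and -5.56 on irradiated arrays, against -6.88, -5.47 and -5.29 on control arrays. Control 1 alone lay below the irradiated values, and the difference of 0.50 was -0.002 without that array. Olfr1261, at 0.17 with all arrays, was -0.29 without control 1. Olfr1036, Olfr1052 and Olfr1123 differed by 0.29, 0.06 and 0.03. With normexp background correction Olfr1101, Olfr1261, Olfr1036 and Olfr1052 were all below 0, between -0.54 and -0.44.

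The members fell into 3 clusters on the chromosome, taking probes within 1 Mb of a neighbour as 1 cluster. The first, between 36233065 and 37187897 of mm9, held 6 members, 5 of them lower, with a median difference of -0.38. The second, between 85171954 and 90136913, held 47, of which 42 were lower, with a median of -0.51. The third, between 111071010 and 111997033, held 7, all lower, with a median of -0.49. In the third, Olfr1311 and Olfr1316, both of family MOR245, differed by -0.65 and -0.49, with intervals that reached 0.01 and 0.31. Differences between the 3 clusters were not tested. Probes of other genes that lay inside the clusters numbered 52, of which 12 were measured; 8 of these were lower, with a median of -0.42. The files described 6 of the 12 as olfactory, of which 5 were lower (median -0.58), while the other 6 were 3 lower and 3 higher (median -0.03).

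By sequence family, all 8 measured members of MOR233 were lower after scaling, with a median of -0.58. All 5 of MOR177 were lower, with a median of -0.59, and so were all 3 of MOR174, at -0.23. In MOR245, 5 of 6 were lower (median -0.41), and in MOR172, 3 of 4 (median -0.60). The families MOR179, MOR234 and MOR264 each had 2 of 3 lower. The spread within a family was as wide as that between families: MOR245 ran from -0.65 to 0.29 and MOR177 from -0.91 to -0.25. Of the members detected on all arrays, 37 of 38 were lower (median -0.49), against 17 of 22 of those detected on 3 to 5 (median -0.50), so 5 of the 6 higher members were in the second set.

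Base composition moved with the group difference among probes of like brightness, and the medians of the members ran the other way. Probes of like brightness had a median difference of 0.24 where they held 15 to 21 G or C bases, 0.14 at 22 to 24, -0.03 at 25 to 27, -0.23 at 28 to 31 and -0.30 at 32 to 45. The members stood at -0.74 (n = 6) in the first of these classes, -0.54 (n = 24) in the second and -0.41 (n = 30) in the third. Receptors of other chromosomes stood at -0.43 (n = 9), -0.47 (n = 36), -0.52 (n = 119), -0.57 (n = 24) and -0.59 (n = 22) in the same order. Their medians fell as the G and C count rose, as those of probes of like brightness did. The order of the members' medians was not tested. Against the nearest probes in brightness among those with the same number of G and C bases, give or take 1, a comparison chosen after seeing the data, the members lay at -0.50, with 54 of 60 below.

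**Figure D4:**
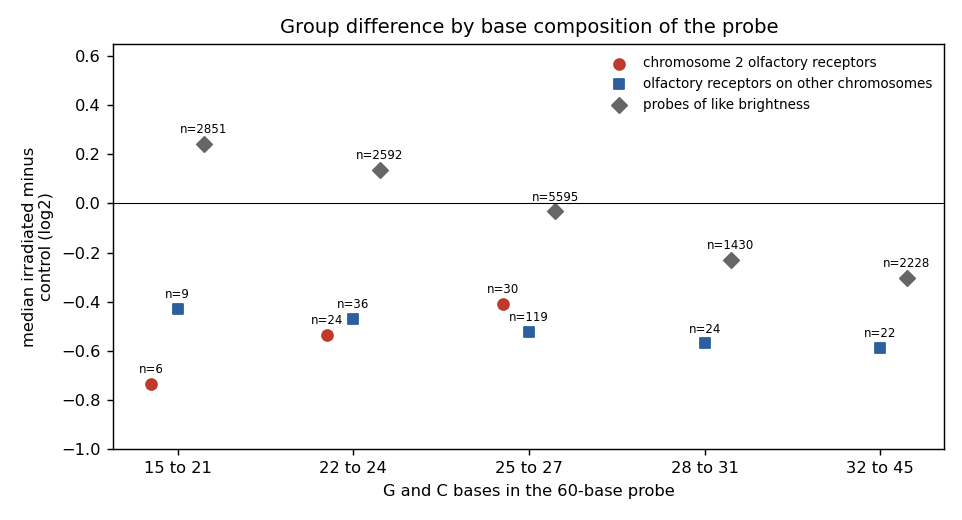
Median difference, irradiated minus control (log2, relative to the 75th percentile), by the number of G and C bases in the probe, for the members (red), receptors of other chromosomes (blue) and probes of like brightness (grey), with the number of probes. The grey medians run between 0.24 and -0.30, while the members lay between -0.74 and -0.41.

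Olfactory receptors elsewhere in the genome had values like those of chromosome 2. Among 210 measured olfactory receptor probes on other chromosomes, 184 were lower, with a median difference of -0.53. At unadjusted p under 0.05 in limma, 48 of them were lower, or 22.9%, against 5.01% of all probes. Without scaling, 75.7% of the 210 were higher (median 0.20), against 95.3% of all probes. Beyond probes of like brightness they lay at -0.51, close to the -0.46 of the members. The vomeronasal receptors, which detect pheromones, split by class when scaled: 24 of 29 measured Vmn1r probes were lower (median -0.44), while 10 of 25 Vmn2r probes were lower (median 0.20). With normexp background correction all 25 Vmn2r probes were lower, with a median of -0.40, and all 29 Vmn1r probes, with a median of -0.55. Of the trace amine receptors (Taar), which are also expressed in olfactory neurons, 3 of 3 were lower (median -0.34). Keratin-associated proteins (Krtap), structural proteins of hair, were also lower in 24 of 29 (median -0.57), and beta-defensins (Defb), antimicrobial peptides of epithelia, in 5 of 5 (median -0.41). Without scaling, where the median of all probes was 0.67, the medians were 0.29 for Vmn1r, 0.92 for Vmn2r, 0.39 for Taar, 0.16 for Krtap and 0.32 for Defb. The differences between these families were not tested, and 0 probes of any passed the adjusted threshold.

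**Figure D5:**
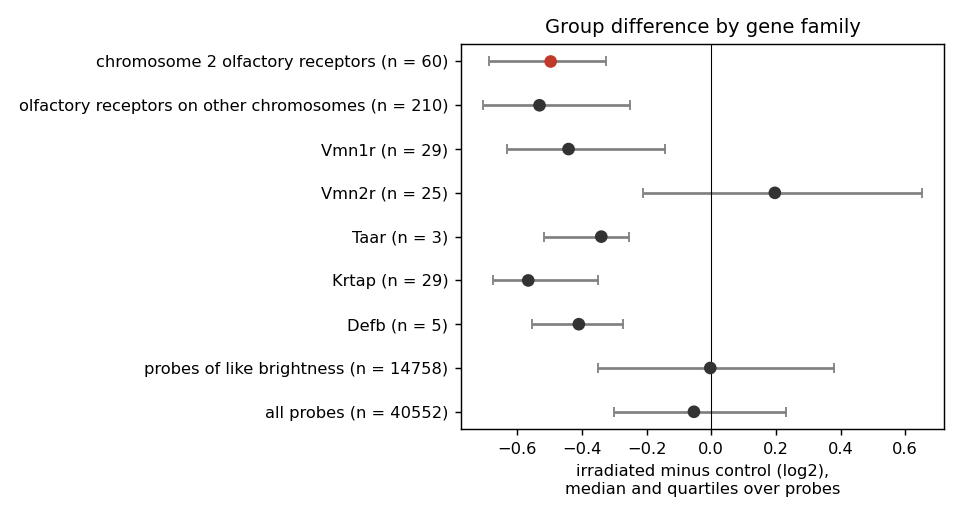
Median difference with quartiles over measured probes, irradiated minus control (log2, relative to the 75th percentile), for the members and other gene families. Of the gene families shown, Vmn2r alone had a median above 0, at 0.20, and with normexp background correction it was -0.40.

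The genes that serve olfactory receptors in the nose were examined beside them, from lists drawn up with earlier results known. None of the 14 measured of 15 transduction genes was called; 8 were lower and 6 higher, with a median difference of -0.08, which was 0.03 after quantile normalisation. Gnal, which encodes the alpha subunit of Golf and is also used by forebrain neurons, measured 3.66, 4.37 and 4.43 on irradiated arrays 1 to 3 and 3.39, 4.33 and 4.66 on control arrays 1 to 3, a difference of 0.03 with full overlap. Adcy3, adenylyl cyclase 3, measured -1.39, -1.03 and -2.07 on irradiated arrays, against -3.16, -2.43 and -1.86 on control arrays. Its difference of 0.99 (standard error 0.40, limma adjusted p 0.519) ran opposite to that of most receptors, and irradiated 3 lay below control 3. Cnga2, a subunit of the channel that opens with cyclic AMP, differed by -0.20, and its partner Cngb1 by -0.58. Stoml3, a protein of olfactory cilia, was not measured.

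The remaining lists gave 0 calls as well. Of 8 genes for bringing receptors to the cell surface, 6 were measured, 5 lower and 1 higher, with a median of -0.05, and of -0.0069 after quantile normalisation. Rtp2, a chaperone of receptor transport, differed by -0.60 (limma adjusted p 0.519), while its relatives Rtp1 and Rtp3 were not measured. Of 17 genes for receptor choice, 16 were measured, 9 lower and 7 higher, with a median of -0.06, which was 0.05 after quantile normalisation. Lhx2, a transcription factor that olfactory neurons need to express their receptors, measured 3.42, 3.56 and 3.59 on irradiated arrays 1 to 3 and 3.57, 3.65 and 3.74 on control arrays 1 to 3, a difference of -0.13; it is also a cortical factor. Kdm1a, a histone demethylase required to start receptor expression, differed by 0.04. Of 11 genes for the maturation and axons of olfactory neurons, 10 were measured, 7 lower and 3 higher, with a median of -0.36, and of -0.22 after quantile normalisation. Omp, the marker protein of mature olfactory neurons, differed by -0.20 and overlapped between groups.

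The identity of the cultures was checked with markers. All 8 neuronal markers were measured, and their mean level was 3.71, 3.70 and 4.03 on irradiated arrays 1 to 3, against 3.92, 3.85 and 4.05 on control arrays 1 to 3. Of 9 markers of olfactory sensory neurons, 7 were measured, with mean levels of -1.17, -0.70 and -0.73 on irradiated arrays and -1.23, -0.62 and -0.73 on control arrays, while Stoml3 and Rtp1 were not measured. That mean was raised by Gnal, at 4.15 in irradiated and 4.13 in control cultures, and Gng13, at 3.87 and 4.44. The other 5 lay lower: Omp averaged -2.51 in irradiated and -2.31 in control cultures, and Cnga2, Cnga4, Adcy3 and Rtp2 were all below -1.49. Of 5 markers of cells that support the olfactory epithelium, 3 were measured, and Cyp2g1 and Muc2 were not. Astrocyte markers stood at 3.90, 2.98 and 2.43 on irradiated arrays and 3.95, 2.98 and 2.58 on control arrays, and oligodendrocyte lineage markers at 3.28, 2.46 and 2.91, against 3.52, 2.51 and 2.98. Endothelial and pericyte markers stood at -2.49 or lower on irradiated arrays and at -1.91 or lower on control arrays. Microglial markers stood at 1.82, -0.28 and -0.96 on irradiated arrays and 1.19, -0.49 and -1.06 on control arrays, high on both arrays numbered 1, as astrocyte and oligodendrocyte lineage markers were. Control 1 also had the fewest spots well above background, 64.9%, against up to 74.7% on irradiated 1. Its recorded fit value for the scanner software's multiplicative detrending was 0, against 0.013 to 0.038 on the other arrays. The part of these differences between arrays in the members' values was not tested.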

How the data were processed

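Expression was measured on 6 one-colour Agilent arrays, 3 irradiated and 3 control. The authors deposited spot intensity values from Agilent Feature Extraction 10.7.1.1 (build mm9, per the file headers). These were background-subtracted, with detrending by that software, and not normalised between arrays. The fit value recorded for multiplicative detrending was 0 on control 1, against 0.013 to 0.038 on the other arrays. Control 1 may thus not have been detrended in that way, and what this did to its values was not tested. Their well above background, outlier and control flags were used as deposited. A second deposited table holds log2 values with column medians of 5.90 in all 6 samples, as after quantile normalisation; the sources used here do not name the tool. All arrays shared 1 slide and scan; row and column on it overlap in part with group.

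The processed signal was taken to log2, outlier spots were left out, repeat spots were averaged, and the 75th percentile over probes was subtracted on each array. Of 56605 probes, 10 lacked an unmarked spot and 40552 met the detection rule. limma 3.58.1 (R 4.3.3, lmFit and eBayes) compared irradiated with control without covariates, with Benjamini-Hochberg adjustment over all kept probes, and was tested on simulated data. The smallest exact two-sided p for 3 against 3 is 0.1, so groups that do not overlap are a description. Members, comparison families and gene lists were chosen with earlier results of these data known. Named were the 10 lower and 5 higher members with the smallest p, the 6 brightest, those nearest the detection threshold, those with several probes and 2 per cluster. Names were matched to RefSeq by accession; promoters were not used. Alternatives covered scaling, background, filters, source, arrays left out and a replicate block. Same-numbered arrays deviated together with correlations of 0.46, 0.33 and 0.086 across probes. The last is under 0.1, so the numbers were not taken as pairs.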

Additional observations from a re-analysis of the deposited data

How the results depend on the processing

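In all 19 other settings 0 members passed the adjusted threshold. Over all probes, 4 passed with quantile normalisation, 4 with the deposited table and 0 in the others; the cause was not tested. The count of members at unadjusted p under 0.05, 13 as reported, was 40 with normexp (15.4% of all probes lower at that p). It was 7 with normexp and quantile normalisation (3.98%) and 32 with no background subtraction (12.9%). It was 47 of 298 with no filter (6.90%) and 7 to 21 with 1 array left out (1.25% to 10.9%). With no scaling it was 1, a higher one, where 14.2% of all probes were higher at that p. The count without overlap, also 13, was 41 of 298 with no filter, 40 of them lower. It was 25 without both arrays numbered 1, 21 of them lower, and 14 to 34 with 1 array left out. Fewer arrays make separation easier for every probe. The matching shares over all probes are not given, so no result is drawn from these counts. The median of -0.50 was -0.15 with normexp and quantile normalisation and -0.34 to -0.64 with 1 array left out, and 0.23 with no scaling, which shifts every probe of an array alike and puts the median of all probes at 0.67. Beyond like brightness, the -0.46 was -0.11 with normexp, -0.13 with normexp and quantile normalisation and -0.17 with no background subtraction. Below like brightness in these settings were 52, 55 and 54 of 60. The value was -0.014 with no filter and -0.31 to -0.60 with 1 array left out. With no scaling it cannot differ from -0.46, because every probe of an array shifts alike. The median of all probes moved to -0.20 with normexp, -0.17 with no background subtraction and -0.15 with no filter. With the replicate number as a block, 0 members were called. At unadjusted p under 0.05, 13 were then lower (4.15% of all probes) and 1 higher (4.44%). Irradiated 2 and 3 each correlated best with a control of another number.

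Of 440 values for the 25 named members under settings other than no scaling, 424 kept their direction and 16 did not. Settings that change only which probes are kept, and the replicate block, leave a probe's own difference unchanged. Their part of the 424 was fixed in advance, so that count does not measure robustness. With normexp, Olfr1036, Olfr1052, Olfr1101 and Olfr1261 were at -0.44, -0.54, -0.45 and -0.44. With no background subtraction they were at -0.36, -0.45, -0.41 and -0.41. With 1 array left out, Olfr1052 ran between -0.30 (without control 3) and 0.46, below 0 also without irradiated 2 and 3 (-0.03 and -0.10). Olfr1101 then ran between -0.002 and 0.79 and Olfr1261 between -0.29 and 0.55, both lowest without control 1. Without both arrays numbered 1, Olfr1101 was at -0.17, Olfr1261 at -0.11 and Olfr1316 at 0.034. With no scaling, a setting chosen after seeing the data, 11 of 25 changed sign under the shift of the whole array: Olfr1008 was at 0.25, Olfr1115 at 0.35, Olfr1143 at 0.37, Olfr1153 at 0.14, Olfr1198 at 0.029, Olfr1211 at 0.056, Olfr1229 at 0.041, Olfr1252 at 0.33, Olfr1262 at 0.049, Olfr1311 at 0.074 and Olfr1316 at 0.23. The cause of these changes was not tested. With 3 arrays per group and most members within a few times the lowest signal well above background, 10.6 to 13.6 units by array, small differences of single receptors were not detectable.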
